A study of Homo sapiens with 8 samples.

Results

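The integrin and laminin genes of lung cancer spheres are described here, in RNA sequencing of pneumospheres, which are floating spheres grown without an attachment surface. Members were the protein-coding genes whose symbol is an ITGA or ITGB name followed by 1 or 2 characters, or a LAMA, LAMB or LAMC name with a digit from 1 to 5. They numbered 39 of the 60106 genes in the count files. There were 26 integrin subunits, of which 18 were α and 8 were β, and 12 laminin chains, of which 5 were α, 4 were β and 3 were γ. The remaining gene, ITGBL1, matches the naming pattern but encodes an integrin β-like secreted protein and not a receptor subunit.

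The study asked what a brief exposure to soluble PD-L1 changes in the RNA of such spheres. The treated spheres received PD-L1s, a man-made soluble version of PD-L1, the ligand of an immune checkpoint, for 15 min at 25 µg/ml, and the untreated spheres received none. Each treatment had 4 libraries, 1 from each of 4 established non-small cell lung cancer lines. The labels give EBC1 as squamous cell carcinoma and the other 3 lines, H23, H820 and H1975, as adenocarcinoma. Nothing in the labels says that the libraries came from cultures grown at different times, so p-values between lines measure the spread between the 2 libraries of a line, which may be technical, and not the spread between tumours. In bulk RNA, fewer cells with a transcript and less transcript per cell cannot be told apart.

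Integrins are cell-surface receptors made of an α and a β subunit that bind matrix proteins or ligands on other cells. Laminins are heterotrimers of an α, a β and a γ chain that form the sheet-like network of basement membranes. In epithelia, the integrin of ITGA6 and ITGB4 holds the cell to laminin at hemidesmosomes in skin and airway. Integrins of ITGAV with ITGB6 or ITGB8 bind latent TGF-β and release or activate it. A subunit reaches the surface, and a trimer is secreted, only when its partner chains are made too, so levels are given below for chains and for known combinations.

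Total counts ran from 5559870 to 27524854 per library, and the 39 genes took 0.309% to 0.617% of them. The untreated EBC1 and H820 libraries were the shallow ones, so 1 count was worth 0.192 CPM in untreated EBC1 and 0.169 CPM in untreated H820, against at most 0.0502 CPM in the other 6 libraries. The summed level of 5 epithelial markers was 143 CPM in PD-L1s and 145 CPM in untreated H23, and lay between 1656 and 4085 CPM in the 6 libraries of EBC1, H820 and H1975. The summed level of 5 squamous markers was 6.13 CPM in PD-L1s and 6.72 CPM in untreated EBC1, the line labelled squamous, and KRT5 had 0 counts in both libraries, so those markers do not bear out its label. TP63, a squamous lineage factor, had 86.6 CPM in PD-L1s and 87.1 CPM in untreated H1975, against at most 1.88 CPM elsewhere. It made up most of the sum of the 5 squamous markers there, 97.4 CPM in PD-L1s and 92.3 CPM in untreated H1975. SOX2, another of the 5, was lower in H1975 than the mean of the other lines, at -1.09 on the log2 scale (edgeR adjusted p = 3.6e-05). The 2 genes that mark the group, ITGB4 and ITGA6, were read in every library.

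Chain levels per kilobase show a shared core and a variable part. A gene counted as detected in a line when its FPKM, the TMM-scaled CPM divided by exonic length in kilobases, was at least 1 in both libraries of that line. By that rule 14 of the 39 genes were detected in all 4 lines, namely ITGA2, ITGA3, ITGA5, ITGA6, ITGAE, ITGAV, ITGB1, ITGB4, ITGB5, ITGB8, LAMA3, LAMA5, LAMB2 and LAMC1. A further 5 were detected in 3 lines, 4 in 2 lines, 6 in 1 line and 10 in none. Each line used a similar number of the genes, with 22 in H1975 and 21 in each of the others. Detection in every line did not mean an even level, and among the 14 genes the ratio of the mean CPM of the highest line to that of the lowest ran from 1.37 for LAMC1 to 33.0 for LAMA3.

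**Figure D1:**
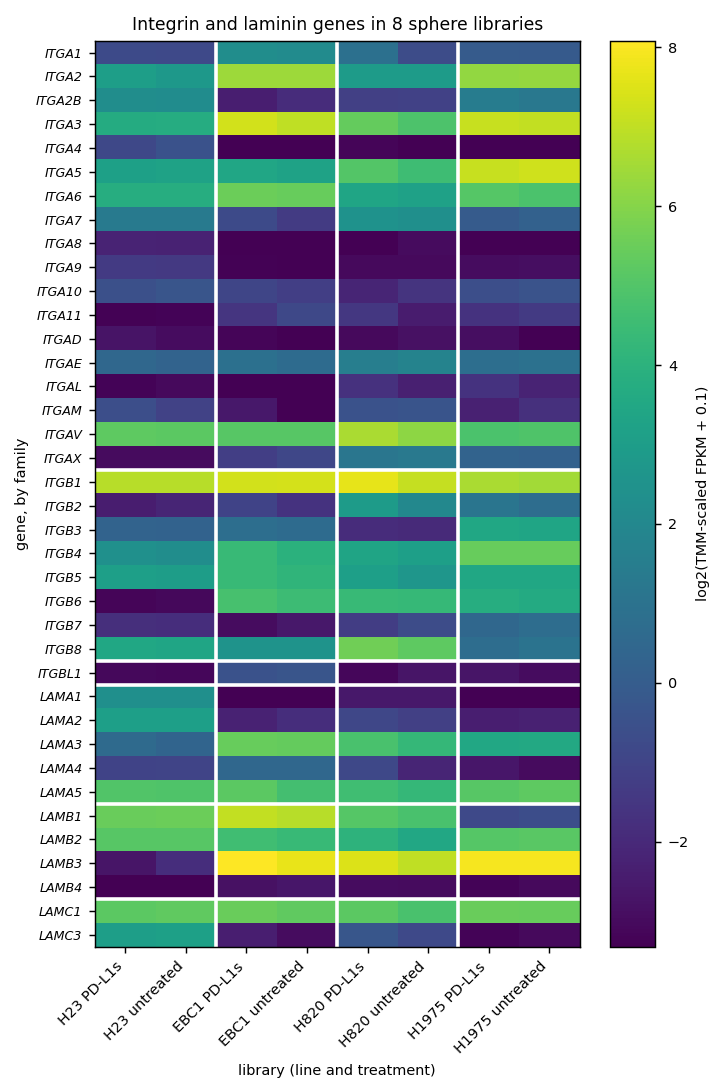
Heat map of 38 of the 39 genes (down the page, by family) in the 8 libraries (across), coloured by log2 of TMM-scaled FPKM plus 0.1, with PD-L1s left of untreated in each line. The 2 libraries of a line look alike, and LAMB3 and ITGB6 are dark in H23 and bright in EBC1, H820 and H1975.

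Among β subunits, ITGB1, the common partner of the collagen, fibronectin and laminin receptors, held most of the RNA in every library. It made up 81.5% of the summed β subunit FPKM in PD-L1s and 82.2% in untreated H23, and 54.4% in PD-L1s and 52.7% in untreated H1975. ITGB4 took 23.5% of the β subunit FPKM in PD-L1s and 24.9% in untreated H1975 and at most 8.83% in a library of the other lines. ITGB8 took 16.5% in PD-L1s and 17.9% in untreated H820 and at most 7.78% elsewhere. Among laminin α chains, LAMA5 made up 67.3% of the summed FPKM in PD-L1s and 67.3% in untreated H23, and 74.8% in PD-L1s and 76.5% in untreated H1975. LAMA3 was the leading α chain in EBC1, with 52.7% in PD-L1s and 61.2% in untreated spheres, and in H820, with 53.1% in PD-L1s and 49.8% in untreated spheres.

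**Figure D2:**
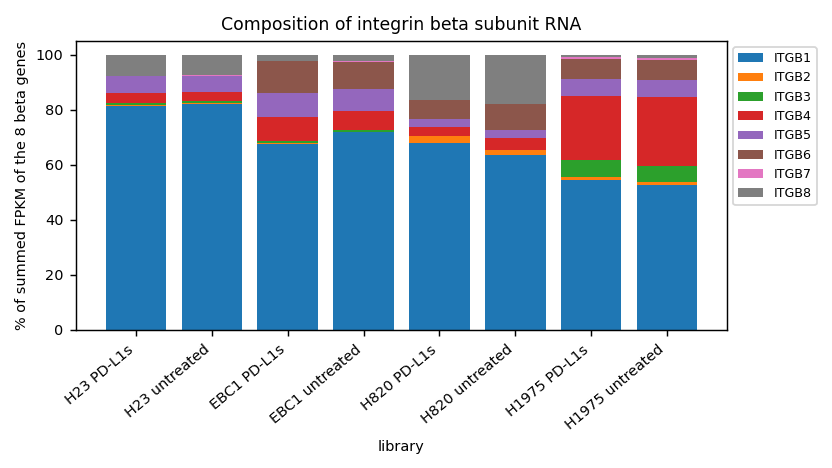
Stacked bars of the share (%) of each of the 8 integrin β genes in their summed FPKM, for 8 libraries with PD-L1s left of untreated in each line. ITGB1 is the largest segment in all 8 bars, ITGB4 is widest in H1975 and ITGB8 in H820.

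Of 24 known integrin pairs, both subunits were detected for 13 in H1975 and for 11 in each other line. In all 4 lines 8 pairs were present: ITGB1 with ITGA2, ITGA3, ITGA5, ITGA6 or ITGAV, ITGAV with ITGB5 or ITGB8, and ITGA6 with ITGB4. The pair of ITGA6 and ITGB4 was limited by ITGB4 at a mean of 5.01 FPKM in H23, 18.2 FPKM in EBC1 and 9.28 FPKM in H820, and by ITGA6 at 31.5 FPKM in H1975. ITGAV with ITGB6 was missing from H23 and ITGAV with ITGB3 from H820. ITGA7 with ITGB1, a laminin receptor best known from muscle, was detected in H23 and H820, and ITGA1 with ITGB1, a collagen receptor, in EBC1. ITGA2B with ITGB3, the fibrinogen receptor of platelets, was detected in H23 and H1975. ITGAX with ITGB2, a leukocyte integrin, was detected in H820 and H1975, and ITGAE with ITGB7, the E-cadherin receptor of intraepithelial lymphocytes, in H1975. Some of these calls lay close above the threshold, as means were 1.11 FPKM for ITGB3 in H23, and 1.10 for ITGAX and 1.46 for ITGB7 in H1975.

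Markers of the blood lineages that carry those last integrins were mostly low, with exceptions among myeloid ones. PTPRC, the pan-leukocyte marker CD45, was at most 0.402 CPM in any library and had 0 counts in both H820 libraries. CD3E, a T cell marker, was at most 0.0471 CPM. The platelet marker GP9 had 0 counts in all 8 libraries, and the 4 platelet markers summed to at most 0.510 CPM. The sum of 8 leukocyte markers, ITGB2 among them, was 33.7 CPM in PD-L1s and 19.6 CPM in untreated H820, and 38.1 CPM in PD-L1s and 37.7 CPM in untreated H1975, where CSF1R alone had 22.7 CPM in each library. Against the mean of the other lines CSF1R was higher in H1975 by 6.54 on the log2 scale (edgeR adjusted p = 2.8e-13), CD14 was higher there by 3.78, with 4.66 CPM in PD-L1s and 6.10 CPM in untreated spheres (edgeR adjusted p = 3.1e-08), and LYZ was higher in H820 by 5.11, with 2.37 CPM in PD-L1s and 2.71 CPM in untreated spheres (edgeR adjusted p = 4.5e-07). The sum was 4.57 CPM in PD-L1s and 4.17 CPM in untreated H23, and 2.55 CPM in PD-L1s and 1.92 CPM in untreated EBC1. The part of such markers in the levels of ITGB2 and ITGAX was not tested.

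Of 10 known laminin trimers, 2 had every chain detected in H1975, 4 in H820, 6 in EBC1 and 8 in H23. The 2 trimers of LAMB2 and LAMC1 with LAMA3 or LAMA5 were detected in all 4 lines. In H23, LAMA3 lay close above the threshold, at a mean of 1.29 FPKM. The 4 trimers with LAMA1 or LAMA2, α chains of early embryonic and of muscle and nerve basement membranes, were detected in H23 alone by this rule. Trimers with LAMA4, an α chain of vessel walls, were detected in EBC1 only, where LAMA4 had 1.29 FPKM in PD-L1s and 1.30 FPKM in untreated spheres, close above the threshold. No trimer with LAMB1 was detected in H1975.

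**Figure D3:**
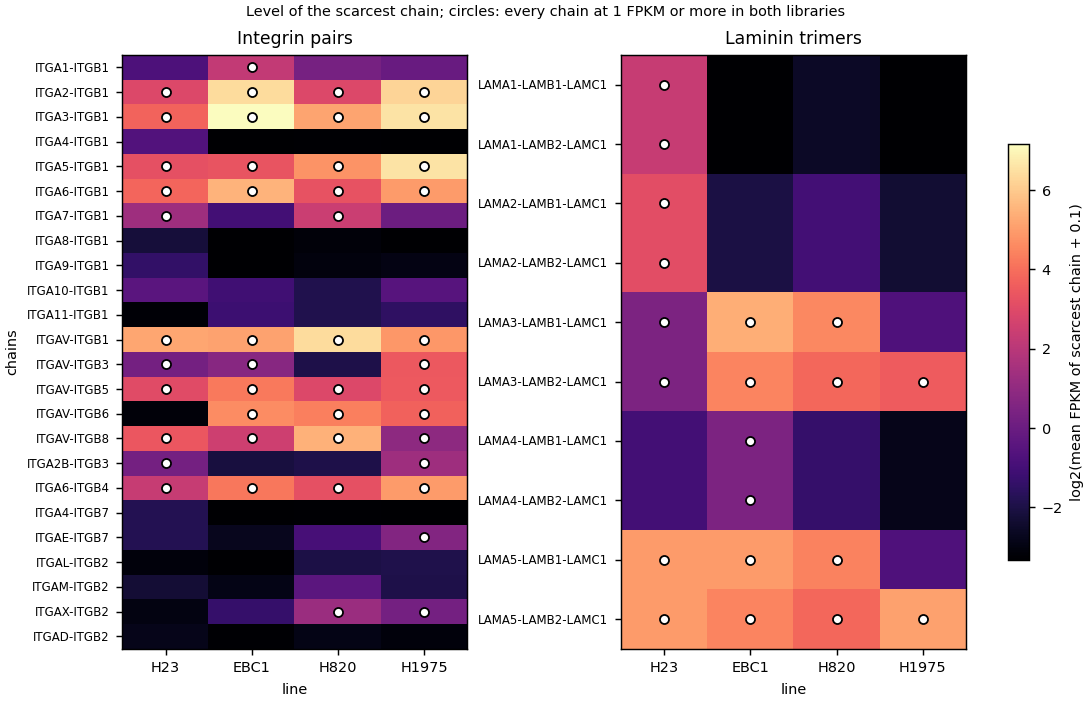
Grids of 24 integrin pairs (left) and 10 laminin trimers (right) by line, coloured by log2 of the mean FPKM of the scarcest chain plus 0.1, with a circle where every chain reached 1 FPKM in both libraries of the line. Circles number 11, 11, 11 and 13 for pairs and 8, 6, 4 and 2 for trimers in H23, EBC1, H820 and H1975.

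Start-site windows are printed for LAMA3, LAMB3, ITGB6 and LAMB1. LAMA3, LAMB3 and ITGB6 were picked from the chains whose levels set single lines apart, and LAMB1 has the opposite pattern in H1975. The windows run from 250 bases before to 50 bases after an annotated start, from RefSeq on GRCh38.p14, whereas the counts were made on GRCh37. Of the 39 genes 27 had such a window, with 34 windows in all. LAMA1 is named only. Other chains that set a line apart had windows that are not printed, among them LAMA2, whose window held no match. The printed windows therefore do not stand for all such chains. Capitals mark a match on either strand to TGANTCA, the AP-1 motif, or to CAGGTG, an E-box recognised by ZEB and SNAI factors.
LAMA3 chr18:23872770-23873069, plus strand: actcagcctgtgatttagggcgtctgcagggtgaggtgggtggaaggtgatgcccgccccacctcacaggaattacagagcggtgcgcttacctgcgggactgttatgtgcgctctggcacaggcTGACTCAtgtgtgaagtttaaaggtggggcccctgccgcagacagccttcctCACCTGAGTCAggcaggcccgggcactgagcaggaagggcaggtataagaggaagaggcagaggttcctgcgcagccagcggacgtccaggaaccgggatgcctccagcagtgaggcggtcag
LAMB3 chr1:209651325-209651624, minus strand: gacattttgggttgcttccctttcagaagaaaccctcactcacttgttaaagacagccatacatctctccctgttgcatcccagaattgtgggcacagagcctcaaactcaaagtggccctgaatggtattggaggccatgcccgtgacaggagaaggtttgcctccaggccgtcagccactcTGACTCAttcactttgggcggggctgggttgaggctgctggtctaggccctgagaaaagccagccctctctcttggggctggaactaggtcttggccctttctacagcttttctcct
LAMB3 chr1:209652376-209652675, minus strand: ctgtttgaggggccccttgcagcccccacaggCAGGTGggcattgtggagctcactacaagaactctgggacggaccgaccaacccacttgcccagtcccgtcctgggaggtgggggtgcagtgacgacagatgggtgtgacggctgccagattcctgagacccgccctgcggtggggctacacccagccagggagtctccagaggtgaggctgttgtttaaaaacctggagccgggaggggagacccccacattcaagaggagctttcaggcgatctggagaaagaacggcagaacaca
ITGB6 chr2:160200223-160200522, minus strand: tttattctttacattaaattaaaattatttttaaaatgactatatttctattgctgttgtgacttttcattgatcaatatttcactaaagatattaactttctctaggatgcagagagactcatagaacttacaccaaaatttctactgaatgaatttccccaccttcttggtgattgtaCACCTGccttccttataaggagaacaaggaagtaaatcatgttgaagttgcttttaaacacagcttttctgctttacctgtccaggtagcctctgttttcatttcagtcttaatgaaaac
LAMB1 chr7:108003112-108003411, minus strand: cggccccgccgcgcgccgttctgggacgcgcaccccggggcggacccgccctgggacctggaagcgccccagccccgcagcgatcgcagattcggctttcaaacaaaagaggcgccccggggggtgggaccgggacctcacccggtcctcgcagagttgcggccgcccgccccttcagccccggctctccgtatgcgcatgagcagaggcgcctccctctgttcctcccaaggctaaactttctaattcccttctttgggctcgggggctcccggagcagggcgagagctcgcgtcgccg

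The LAMA3 window held AP-1 matches that begin 125 and 69 bases before the start, and an E-box match 73 bases before it that overlaps the nearer AP-1 match. Of 3 LAMB3 windows, 1 held an AP-1 match 67 bases before its start, 1 an E-box match 218 bases before its start, and the third, which overlaps the second, held neither. The ITGB6 window held an E-box match 70 bases before the start, had a GC content of 31.7% and contained 0 CpG sites. The LAMB1 window held no match, had a GC content of 71.0% and contained 35 CpG sites. Of 35116 windows of the same length, 7.71% held the AP-1 motif, 20.6% the E-box and 2.11% the GRHL motif AACCNGNTT, and the median window had a GC content of 58.7% and 14 CpG sites. Among the 27 genes with a window, 3 held an AP-1 match, 8 an E-box match and 1, ITGA5, a GRHL match. These are counts per gene, and a gene with more than 1 window had more chances of a match. They are therefore not on the scale of the shares per window. A match describes the letters only.

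Each line was then set against the mean of the other lines, to ask which chains are higher or lower in it. The test was edgeR's quasi-likelihood F test on counts, fitted to the 24185 genes that passed the filter on low counts, with line and treatment as terms and Benjamini-Hochberg adjustment over all of them. Of the 39 genes 37 entered it. ITGAD, an α subunit of leukocytes, never exceeded 4 counts and LAMB4 never exceeded 6. ITGA4, ITGA8 and ITGA9 passed the filter through H23 only and ITGBL1 through EBC1 only, so that a difference between lines was built into their selection.

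H23 had little RNA of LAMB3 and more of other α and γ chains. LAMB3, LAMA3 and ITGB6 were lower in H23 than in the other lines, and LAMA1, LAMA2 and LAMC3 were higher. In all, 13 of 37 genes were higher and 16 lower (78.4% called), a balance that turned to 16 higher and 14 lower with scaling by library size alone. Of all genes tested, 61.8% were called, 34.4% higher and 27.4% lower. The median log2 difference over the 37 genes was -0.34, beside 0.10 over all genes tested. By family, 8 of 25 tested integrin subunits were higher and 12 lower, and 5 of 11 tested laminin chains were higher and 3 lower. ITGA4, ITGA8 and ITGA9, which passed the filter through H23 only, are among the 13 genes and the 8 subunits that were higher. Their direction was built into that selection, so these counts are not fully comparable with the share of all genes.

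LAMB3, a laminin β chain of epithelia, had 0.251 CPM in PD-L1s and 0.802 CPM in untreated H23. It had 1215 and 935 CPM in PD-L1s and untreated EBC1, 794 and 567 CPM in PD-L1s and untreated H820, and 1089 and 1087 CPM in PD-L1s and untreated H1975. The H23 values lay far under the lowest of the other lines, and the log2 difference of H23 from the mean of the others was -10.67 ± 0.357 (SE; edgeR adjusted p = 2.2e-14). LAMA3, a laminin α chain of epithelia, had 15.6 CPM in PD-L1s and 12.9 CPM in untreated H23, 475 and 467 CPM in PD-L1s and untreated EBC1, 307 and 215 CPM in PD-L1s and untreated H820, and 127 and 128 CPM in PD-L1s and untreated H1975. All 4 lines were apart, in the order EBC1, H820, H1975 and H23, with a log2 difference of -4.14 ± 0.182 in H23 (edgeR adjusted p = 7.4e-13). The overlapping microRNA gene MIR4260 shares read pairs with LAMB3, since a pair was counted for each gene it overlapped.

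ITGB6, an epithelial β subunit that pairs with ITGAV to activate TGF-β, had 1 count in PD-L1s and 2 counts in untreated H23. It had 128 and 106 CPM in PD-L1s and untreated EBC1, 96.6 and 92.4 CPM in PD-L1s and untreated H820, and 63.1 and 58.6 CPM in PD-L1s and untreated H1975. The level of H23 was 0.00110 of that of H1975, the lowest of the other lines (exact 95% interval 0.000227 to 0.00322, counting error only). It shares read pairs with an overlapping gene, RP11-813C7.1. ITGB4 was lower in H23 at -1.96 ± 0.142 on the log2 scale (edgeR adjusted p = 9.4e-10) and ITGA6 at -0.80 ± 0.129 (edgeR adjusted p = 2.9e-05). Of other low subunits, ITGAX was lower at -5.11 ± 0.359 (edgeR adjusted p = 6.1e-10), and ITGA11, a collagen receptor subunit, had 1 count in PD-L1s and 2 counts in untreated H23 (edgeR adjusted p = 1.4e-06).

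LAMA1 had 49.2 CPM in PD-L1s and 49.4 CPM in untreated H23. It had 0.650 CPM in PD-L1s and 0.677 CPM in untreated H820, and 0 counts in the 4 libraries of EBC1 and H1975. Against a floor of 3 counts over the 2 libraries of a line, its level in H23 was at least 453-fold higher than in EBC1 and at least 726-fold higher than in H1975. LAMA2 had 84.2 CPM in PD-L1s and 81.8 CPM in untreated H23, against 0.942 to 4.32 CPM in the other 6 libraries, with a log2 difference of 5.59 ± 0.142 (edgeR adjusted p = 7.0e-16). LAMC3, a γ chain found in nerve and retina among other tissues, had 51.1 CPM in PD-L1s and 54.4 CPM in untreated H23, against 0.0471 to 4.45 CPM in the other 6 libraries, with a log2 difference of 6.53 ± 0.191 (edgeR adjusted p = 4.5e-15). H23 stood above every other library for all 3 chains, as the plot of laminin chains by line shows. ITGA4, a subunit that binds VCAM1, had 41 counts in PD-L1s and 72 counts in untreated H23, 1 count in all in H820 and 0 counts in EBC1 and H1975, and its level in H23 was at least 22.7-fold higher than in EBC1 and at least 36.4-fold higher than in H1975. ITGA8, which binds nephronectin, had 16 counts in PD-L1s and 19 counts in untreated H23, which was at least 7.19-fold higher than in EBC1 and at least 11.5-fold higher than in H1975. Both lay under 1 FPKM in H23 as well.

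**Figure D4:**
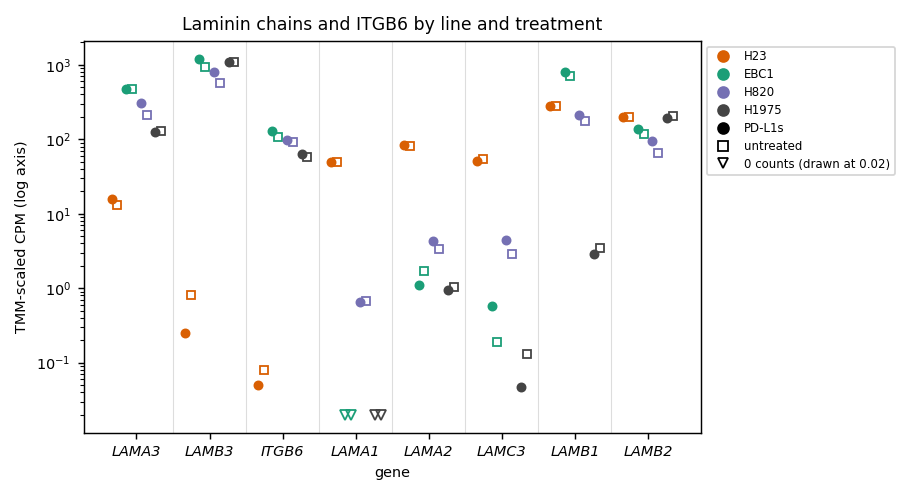
TMM-scaled CPM (log axis) of 7 laminin chains and ITGB6 in each library, with filled circles for PD-L1s, open squares for untreated and open triangles at 0.02 for libraries with 0 counts. LAMA3, LAMB3 and ITGB6 are lowest in H23, LAMA1, LAMA2 and LAMC3 are highest in H23, and LAMB1 is lowest in H1975.

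EBC1 had high levels of LAMA3, LAMB3 and LAMB1. Of 37 genes 15 were higher and 12 lower (73.0% called), which became 13 and 13 with scaling by library size alone. The 15 include ITGBL1, which passed the filter through EBC1 only, so that its direction was built into its selection. Of all genes tested, 54.4% were called, 28.1% higher and 26.4% lower. The median log2 difference over the 37 genes was 0.03, beside -0.08 over all genes tested. LAMB3 was higher by 3.84 ± 0.183 on the log2 scale (edgeR adjusted p = 5.6e-12) and LAMA3 by 2.60 ± 0.126 (edgeR adjusted p = 6.7e-12). The means of the other lines include H23, where LAMB3 was nearly absent, and LAMB3 in EBC1 did not differ from that in H1975 beyond the spread of the libraries (log2 difference of EBC1 from H1975 -0.03 ± 0.221, edgeR adjusted p = 0.943).

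LAMB1, a β chain of many laminins, had 814 CPM in PD-L1s and 711 CPM in untreated EBC1. It had 277 and 281 CPM in PD-L1s and untreated H23, 209 and 175 CPM in PD-L1s and untreated H820, and 2.92 and 3.44 CPM in PD-L1s and untreated H1975. No 2 lines overlapped, and EBC1 was above the mean of the others by 3.78 ± 0.128 (log2; edgeR adjusted p = 6.2e-14). ITGB6 was higher in EBC1 by 3.96 ± 0.149 (edgeR adjusted p = 2.3e-13), ITGA6 by 1.47 ± 0.115 (edgeR adjusted p = 4.0e-09) and ITGB4 by 0.52 ± 0.123 (edgeR adjusted p = 0.0014). The ITGB4 call was lost without the PD-L1s library of EBC1 (edgeR adjusted p = 0.0945) and with scaling by library size alone (edgeR adjusted p = 0.107). ITGBL1 had 3.76 CPM in PD-L1s and 4.22 CPM in untreated EBC1, against 0.0802 to 0.338 CPM in the other 6 libraries.

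The 5 called genes with the most negative difference in EBC1 were ITGAL, ITGA2B, ITGA9, ITGB7 and ITGAM. ITGA2B was lower at -3.84 ± 0.356 on the log2 scale (edgeR adjusted p = 4.0e-08), ITGB7 at -3.46 ± 0.632 (edgeR adjusted p = 0.00014) and ITGAM, an α subunit of myeloid cells, at -2.78 ± 0.586 (edgeR adjusted p = 0.00056). ITGAL, the α subunit of a lymphocyte integrin, had 0 counts in both EBC1 libraries, and its level was at least 7.23-fold higher in H820 and at least 7.99-fold higher in H1975. H23 was low in ITGAL too, with 1 count in PD-L1s and 3 counts in untreated spheres. It was not separated from EBC1 (edgeR adjusted p = 0.117). ITGA9, which binds tenascin and osteopontin, had 1 count in PD-L1s and 0 counts in untreated EBC1. The calls of ITGAL and ITGA9 were lost without the PD-L1s library of EBC1 (edgeR adjusted p = 0.275 and 0.145). Both then had 0 counts in the EBC1 library that was left, and their fitted log2 differences, which depend on the prior count, were -5.47 and -6.02, beside -6.09 and -3.49 with both libraries. Of other subunits known from leukocytes, ITGB2 was lower at -1.77 ± 0.328 (edgeR adjusted p = 0.00017), and 2 were not called, as ITGAX gave -0.16 ± 0.340 (edgeR adjusted p = 0.734) and ITGAE -0.16 ± 0.193 (edgeR adjusted p = 0.535).

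H820 was set apart by high ITGAV and its partner ITGB8, and by high ITGB2 and ITGAX. Of 37 genes 17 were higher and 11 lower (75.7% called), beside 53.5% of all genes tested, 30.6% higher and 22.9% lower. The median log2 difference over the 37 genes was 0.44, or 0.21 with lines at 0 counts set at the floor of 3 counts, beside 0.04 over all genes tested. ITGB8 had 455 CPM in PD-L1s and 346 CPM in untreated H820. It had 101 and 96.5 CPM in PD-L1s and untreated H23, 52.7 and 52.2 CPM in PD-L1s and untreated EBC1, and 14.6 and 18.0 CPM in PD-L1s and untreated H1975. The lines did not overlap, each neighbour in the order H820, H23, EBC1 and H1975 differed from the next, and the log2 difference of H820 from the mean was 3.19 ± 0.125 (edgeR adjusted p = 2.2e-13). ITGAV, the shared α partner, had 705 CPM in PD-L1s and 506 CPM in untreated H820, against 209.9 to 278 CPM in the other 6 libraries, a log2 difference of 1.30 ± 0.133 (edgeR adjusted p = 1.5e-07). ITGB6 was higher too, by 3.55 ± 0.153 (edgeR adjusted p = 8.0e-13), against a mean that includes H23, and in its order of levels H820 was not separated from EBC1 (log2 difference of EBC1 from H820 0.31 ± 0.144, edgeR adjusted p = 0.0785). ITGB8 led the ITGAV partners other than ITGB1 in H820, with 62.8% of their summed FPKM in PD-L1s and 58.9% in untreated spheres, and in H23, with 53.3% in PD-L1s and 53.3% in untreated spheres. ITGB6 led them in EBC1, with 49.6% in PD-L1s and 47.9% in untreated spheres, and in H1975, with 36.1% in PD-L1s and 34.9% in untreated spheres.

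ITGB2, the β subunit of the leukocyte integrins, had 26.7 CPM in PD-L1s and 13.5 CPM in untreated H820. It had 0.301 and 0.441 CPM in PD-L1s and untreated H23, 1.34 and 0.768 CPM in PD-L1s and untreated EBC1, and 7.30 and 5.54 CPM in PD-L1s and untreated H1975. H820 was above every other library, with a log2 difference of 3.83 ± 0.207 (edgeR adjusted p = 2.1e-11). ITGAX was high as well, at 12.3 CPM in PD-L1s and 13.7 CPM in untreated H820 against 0.151 to 6.5 CPM in the other 6 libraries, a log2 difference of 3.31 ± 0.215 (edgeR adjusted p = 2.8e-10). The call of ITGAL, higher by 3.35 ± 0.771 (edgeR adjusted p = 0.0014), was lost without the PD-L1s library of H820 (edgeR adjusted p = 0.110). ITGB3, the β subunit of the vitronectin receptor, had the most negative difference of H820, with 0.742 CPM in PD-L1s and 0.677 CPM in untreated H820 and a log2 difference of -4.02 ± 0.245 (edgeR adjusted p = 1.2e-10). ITGA2, a collagen receptor subunit, was lower at -2.26 ± 0.158 (edgeR adjusted p = 8.3e-10), ITGA2B at -1.64 ± 0.318 (edgeR adjusted p = 0.00026), ITGA6 at -1.47 ± 0.136 (edgeR adjusted p = 4.2e-08) and ITGB4 at -0.77 ± 0.133 (edgeR adjusted p = 8.1e-05). ITGA10, another collagen receptor subunit, was lower at -1.80 ± 0.364 (edgeR adjusted p = 0.00039), a call lost without the PD-L1s library of H820 (edgeR adjusted p = 0.0504).

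H1975 was highest in the fibronectin and vitronectin receptor subunits ITGA5 and ITGB3 and in ITGB4, and lowest in LAMB1. Of 37 genes 17 were higher and 9 lower (70.3% called), beside 53.6% of all genes tested, 31.0% higher and 22.6% lower. The median log2 difference over the 37 genes was 0.09, beside 0.03 over all genes tested. By family the split was 14 integrin subunits higher and 5 lower of 25, and 3 laminin chains higher and 4 lower of 11. ITGA5, the α subunit of the fibronectin receptor, had 622 CPM in PD-L1s and 679 CPM in untreated H1975, against 38.9 to 143 CPM in the other 6 libraries, a log2 difference of 3.42 ± 0.129 (edgeR adjusted p = 1.6e-13). ITGB3 had 48.8 CPM in PD-L1s and 45.4 CPM in untreated H1975, against 0.677 to 7.30 CPM in the other 6 libraries, a log2 difference of 4.02 ± 0.136 (edgeR adjusted p = 4.2e-14), and it shares read pairs with an overlapping gene, RP11-290H9.2. H1975 exceeded every other library for both.

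ITGB4, the hemidesmosome β subunit, had 268 CPM in PD-L1s and 268 CPM in untreated H1975. It had 32.5 and 29.4 CPM in PD-L1s and untreated H23, 128 and 97.1 CPM in PD-L1s and untreated EBC1, and 62.6 and 52.3 CPM in PD-L1s and untreated H820. No 2 lines overlapped, each neighbour in the order H1975, EBC1, H820 and H23 differed from the next, and H1975 was higher by 2.20 ± 0.114 on the log2 scale (edgeR adjusted p = 1.2e-11). Its partner ITGA6 followed another order, with 268 and 255 CPM in PD-L1s and untreated EBC1, 198 and 169 CPM in PD-L1s and untreated H1975, 79.5 and 80.7 CPM in PD-L1s and untreated H23, and 59.7 and 53.6 CPM in PD-L1s and untreated H820. Those lines too were apart at each step, with EBC1 above H1975 by 0.51 ± 0.149 (log2; edgeR adjusted p = 0.0076). LAMB1 was lower in H1975 at -6.75 ± 0.216 (edgeR adjusted p = 1.9e-14), LAMC3 at -5.58 ± 0.454 (edgeR adjusted p = 6.7e-09), LAMA4 at -3.65 ± 0.404 (edgeR adjusted p = 4.1e-07), ITGB8 at -2.96 ± 0.168 (edgeR adjusted p = 4.2e-11) and LAMA2 at -2.90 ± 0.229 (edgeR adjusted p = 4.4e-09). LAMB3 was higher by 3.88 ± 0.183 (edgeR adjusted p = 3.1e-12), ITGB7 by 3.30 ± 0.323 (edgeR adjusted p = 8.4e-08) and ITGAL by 3.46 ± 0.708 (edgeR adjusted p = 0.00049). ITGAL had 24 counts in PD-L1s and 14 counts in untreated H1975, against a mean that includes EBC1 at 0 counts. In ITGAL, H1975 was not separated from H820 (log2 difference of H820 from H1975 -0.08 ± 0.571, edgeR adjusted p = 0.927).

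Of the 14 genes detected in every line, 3 had a ratio of the highest to the lowest line under 2, namely LAMC1 at 1.37, LAMA5 at 1.71 and ITGB1 at 1.76. It was over 8 for 6 of them, ITGB4, ITGA3, ITGA2, ITGA5, ITGB8 and LAMA3. ITGB1, the β subunit shared by most α subunits, had 452 and 448 CPM in PD-L1s and untreated H23, 625 and 632 CPM in PD-L1s and untreated EBC1, 796 and 526 CPM in PD-L1s and untreated H820, and 393 and 360.1 CPM in PD-L1s and untreated H1975. H820 and EBC1 overlapped, and the only neighbours apart were EBC1 and H23 (log2 difference 0.48 ± 0.186, edgeR adjusted p = 0.0321). Against the mean of the other lines, ITGB1 was higher in EBC1 by 0.39 ± 0.149 (edgeR adjusted p = 0.034) and in H820 by 0.46 ± 0.148 (edgeR adjusted p = 0.0133), and lower in H1975 at -0.60 ± 0.157 (edgeR adjusted p = 0.0034), calls that were lost when single libraries were left out. The difference in H820 was 0.15 without its PD-L1s library (edgeR adjusted p = 0.398), and that in EBC1 0.075 with scaling by library size alone (edgeR adjusted p = 0.598). LAMC1, the γ chain of most laminins, ran from 219 to 355 CPM over the 8 libraries and no neighbouring lines in its order differed in this test. Its highest and lowest lines did differ, with H820 under H1975 at -0.46 ± 0.168 on the log2 scale (edgeR adjusted p = 0.0284). Against the mean of the other lines, LAMC1 was lower in H820 at -0.37 ± 0.141 (edgeR adjusted p = 0.0339). LAMA5, the most widespread α chain of adult epithelia, ran from 218 to 437 CPM. H820 was lower in LAMA5 at -0.63 ± 0.155 (edgeR adjusted p = 0.0021) and H1975 higher by 0.41 ± 0.146 (edgeR adjusted p = 0.0225), and the call in H1975 was lost without the untreated H1975 library (edgeR adjusted p = 0.626) or the untreated EBC1 library (edgeR adjusted p = 0.0769).

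Over the 37 tested genes, 71 of 111 pairs of lines that neighbour each other in a gene's order of levels differed. That was 64.0%, beside 38.1% of such pairs over all genes tested, each in its own order. For 12 genes all 3 neighbouring pairs were apart, for 11 genes 2 were, for 13 genes 1 was, and LAMC1 had none. The highest line stood apart from the next for 25 genes (67.6%), beside 45.3% of all genes tested, with 8 of them highest in EBC1, 7 in H23, 6 in H820 and 4 in H1975. Without ITGA4, ITGA8, ITGA9 and ITGBL1, which passed the filter through their highest line only, the counts were 67 of 99 pairs and 21 of 33 genes.

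Lists of genes that work with these chains were set between the lines in the same way. COL17A1, a transmembrane collagen of hemidesmosomes, was lower in H23, with 0.301 CPM in PD-L1s and 0.361 CPM in untreated spheres, against 13.1 to 116 CPM in the other 6 libraries (log2 difference -7.28, edgeR adjusted p = 1.4e-14). Of 4 hemidesmosome genes other than the integrins, 3 were lower and 1 higher in H23, beside 61.8% of all genes called there. Of 27 genes of the adhesion machinery inside the cell, 5 were higher and 15 lower in H23, 13 higher and 7 lower in EBC1, 10 higher and 11 lower in H820, and 14 higher and 6 lower in H1975. Called were 74.1% of them in H23, EBC1 and H1975 each and 77.8% in H820, beside 61.8%, 54.4%, 53.6% and 53.5% of all genes in H23, EBC1, H1975 and H820. Of 13 other basement membrane genes, 8 were higher and 4 lower in H23, 2 higher and 7 lower in EBC1, 6 higher and 3 lower in H820, and 3 higher and 4 lower in H1975. That was 92.3% called in H23, 69.2% in EBC1 and in H820, and 53.8% in H1975, the last being near the 53.6% of all genes. NID1, which links laminin to collagen IV, had 19.4 CPM in PD-L1s and 19.1 CPM in untreated H23 and 0 counts in both EBC1 libraries. CDH1, the E-cadherin ligand of the ITGAE pair, was lower in H23, with 1.66 CPM in PD-L1s and 2.01 CPM in untreated spheres, against 331 to 1284 CPM in the other 6 libraries (log2 difference -8.65, edgeR adjusted p = 9.8e-15). FN1, the ligand of the ITGA5 pair, had 1287 and 1316 CPM in PD-L1s and untreated H1975, 1449 and 504 CPM in PD-L1s and untreated H820, 25.0 and 21.8 CPM in PD-L1s and untreated H23, and 16.7 and 10.7 CPM in PD-L1s and untreated EBC1. It was higher in H1975 by 4.34 (log2; edgeR adjusted p = 2.3e-12) and in H820 by 3.59 (edgeR adjusted p = 3.3e-11), and those lines were not separated (log2 difference of H820 from H1975 -0.56 ± 0.264, edgeR adjusted p = 0.0826).

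No integrin or laminin gene passed the test for PD-L1s, 15 min after it was added. Over the 4 lines 0 of 37 genes were called by edgeR, beside 0.0372% of all genes tested, and 1 of 37 had an unadjusted p under 0.05. DESeq2 and limma-voom also called 0, with 0 and 2 genes under that unadjusted p. The fitted log2 difference lay above 0 for 28 of 37 genes, with a median of 0.11 beside 0.04 over all genes tested. For the 11 laminin chains it lay above 0 in 10, with a median of 0.16. The share of all tested genes above 0 is not set beside these counts of directions, so they do not show a response.

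ITGB2 had the smallest p. Its levels are given above, and its log2 ratio of PD-L1s to untreated was 0.97 in H820, 0.63 in EBC1, 0.38 in H1975 and -0.31 in H23. It was higher with PD-L1s in 3 of 4 lines, and the fitted difference was 0.60 ± 0.211 (edgeR unadjusted p = 0.0107, adjusted p = 0.9996). Without H820 the fitted difference was 0.33 (unadjusted p = 0.246). ITGA1, a collagen receptor subunit, had 18.7 CPM in PD-L1s and 5.58 CPM in untreated H820, 50.8 and 47.2 CPM in PD-L1s and untreated EBC1, 5.32 and 5.09 CPM in PD-L1s and untreated H23, and 9.42 and 9.03 CPM in PD-L1s and untreated H1975. H820 alone moved by more than 0.11 on the log2 scale, and the fitted difference of 0.39 ± 0.194 (edgeR adjusted p = 0.9996) was 0.08 without H820. ITGA1 shares read pairs with the overlapping gene PELO.

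The epithelial adhesion chains gave small fitted differences. They were 0.20 ± 0.110 for ITGB4, 0.11 ± 0.107 for ITGA6, 0.20 ± 0.121 for LAMA3, 0.19 ± 0.176 for LAMB3 and 0.19 ± 0.130 for LAMA5, each with an edgeR adjusted p of 0.9996. ITGB1 gave 0.18 ± 0.132 and ITGAV 0.13 ± 0.123. With H23 and H1975 alone, the lines of even depth, the values of LAMB3 and LAMA5 were -0.058 and -0.048. The smallest unadjusted p-values among negative differences belonged to ITGB7 at -0.33 ± 0.322, ITGA4 at -0.43 ± 0.541 and ITGA10 at -0.18 ± 0.25. ITGA1, ITGB3 and ITGB5 were higher with PD-L1s in 4 of 4 lines, and no tested gene was lower in all 4. Some of these log2 ratios were near 0, such as 0.0087 for ITGB5 in H1975 and 0.06 for ITGA1 in H23 and in H1975. The share of all genes with 1 direction in 4 lines was not taken, so the count does not show a response.

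H820 held most of the upward shift, with 1 pair of libraries and no replicate check. The median log2 ratio of PD-L1s to untreated over the 37 genes was 0.31 in H820 beside 0.06 over all genes tested, 0.15 in EBC1 beside 0.08, 0.0079 in H23 beside -0.00055, and 0 in H1975 beside 0. Of genes counted 50 times or more in a library, 3 of 27 exceeded a 2-fold increase in H820, or 11.1% beside 5.10% of all genes in either direction, and none of 23 did so in EBC1, of 28 in H23 or of 27 in H1975. Those 3 were ITGA1, ITGA11 and LAMA4, with log2 ratios of 1.70, 1.40 and 1.57, and they are named after their values were seen. In untreated H820, ITGA11 had 5 counts and LAMA4 had 6 counts, against 58 and 77 counts in PD-L1s. The ratios of those genes therefore rest on few untreated counts. ITGA1 had 33 counts in untreated and 404 counts in PD-L1s H820. The PD-L1s library of H820 held 23783679 counts and the untreated one 5559870, and the part of that difference in depth in the shift was not tested. Marker sums moved with it. Epithelial markers summed to 2663 CPM in PD-L1s and 1656 CPM in untreated H820, 4085 and 3366 CPM in PD-L1s and untreated EBC1, 3548 and 3398 CPM in PD-L1s and untreated H1975, and 143 and 145 CPM in PD-L1s and untreated H23. Alveolar markers summed to 85.5 CPM in PD-L1s and 44.0 CPM in untreated H820, and leukocyte markers, given above, were higher in PD-L1s there too. The part of these markers in the shift was not tested.

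**Figure D5:**
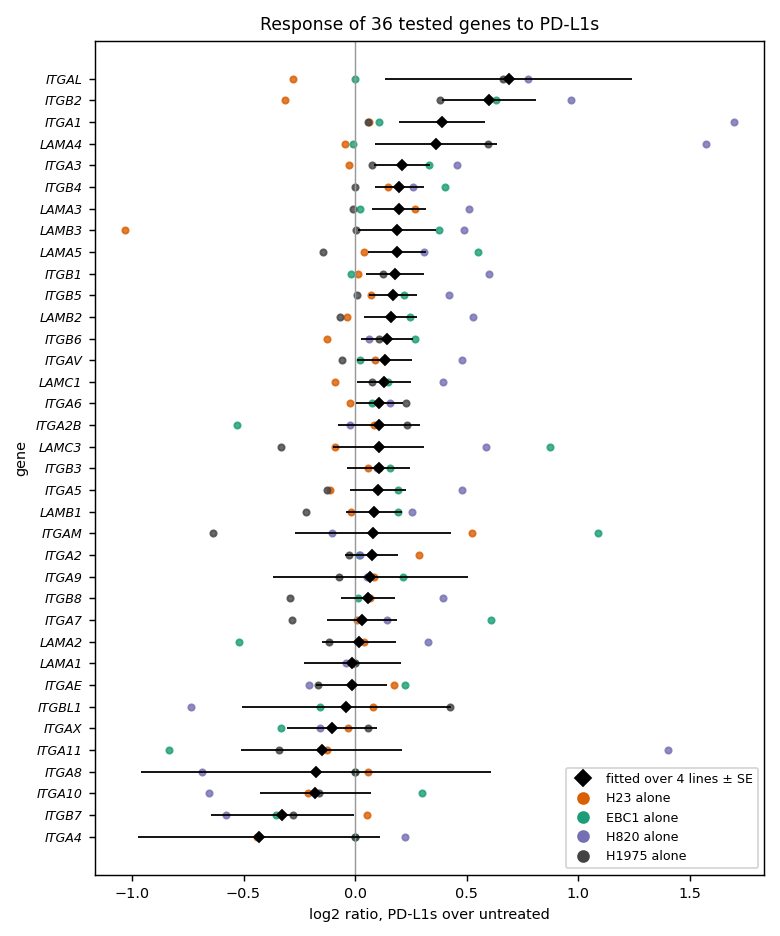
Log2 ratios of PD-L1s over untreated for 36 of the 37 tested genes, with black diamonds and bars for the value fitted over 4 lines ± SE and coloured points for each line's own pair of libraries. Most diamonds lie between -0.2 and 0.4, and the H820 points of ITGA1, LAMA4 and ITGA11 lie farthest to the right.

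The response of EBC1 was compared with that of the adenocarcinoma lines by an interaction term. EBC1 had a single pair of libraries there, so only the adenocarcinoma lines gave a spread. Of 37 genes 0 were called by edgeR and 0 had an unadjusted p under 0.05, beside 0.0124% of all genes called. Among ligands of integrins, CYR61, a matrix protein bound by ITGAV and ITGA6 integrins, rose with PD-L1s, the 1 call among 15 tested. It had 15.3 and 8.98 CPM in PD-L1s and untreated H23, 74.5 and 52.2 CPM in PD-L1s and untreated EBC1, 62.6 and 20.8 CPM in PD-L1s and untreated H820, and 26.3 and 14.6 CPM in PD-L1s and untreated H1975. It was higher in 4 of 4 lines, with a fitted log2 difference of 0.91 ± 0.143 (edgeR adjusted p = 0.0148). Of the 15 ligands 13 had a fitted difference above 0 and 5 an unadjusted p under 0.05, and no difference between ligands was tested. No share of all tested genes is set beside these counts, so they do not show a response of the ligands as a set. By the levels given above, FN1 was not higher with PD-L1s in H1975. Its largest rise was in H820, where the untreated library was shallow. CTGF, a relative of CYR61, gave 1.21 ± 0.283 (edgeR unadjusted p = 0.00046, adjusted p = 0.648), FN1 0.58 ± 0.198 (unadjusted p = 0.0095), ICAM1, a ligand of leukocyte integrins, 0.34 ± 0.127 (unadjusted p = 0.014) and TNC, a matrix protein bound by ITGA9, 0.47 ± 0.201 (unadjusted p = 0.0304), each with an edgeR adjusted p of 0.9996 but for CTGF. None of the 27 adhesion machinery genes, 4 hemidesmosome genes, 13 other basement membrane genes or 5 other laminin receptors was called for PD-L1s, with 0, 0, 2 and 1 of them under an unadjusted p of 0.05.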

How the data were processed

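RNA was measured in 8 libraries, 1 PD-L1s and 1 untreated library from each of 4 lines. Per the labels' protocols, the kit depleted ribosomal RNA and kept strand. The authors deposited unnormalised counts, 1 per gene and library. STAR 2.7.3a aligned the reads to GRCh37, and Subread 2.0.0 (featureCounts) made the counts, per the submitters' processing notes. Per the file headers, exons of GENCODE 28 (basic, carried over to GRCh37) were summed per gene in the reverse-stranded setting, primary alignments with a mapping quality of at least 1 were used, and a pair was counted for every gene it overlapped, so that overlapping genes share counts.

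The deposited counts were tested with edgeR 4.0.16 in R 4.3.3 (quasi-likelihood F test, two-sided), with TMM scaling, line and treatment as terms and Benjamini-Hochberg adjustment over all 24185 genes kept at a minimum count of 10 with the line as the group; calls were made under 0.05. Pairing by line comes from the labels, and in the check the deviations of the 2 libraries of a line correlated across genes, with r from 0.891 (H820) to 0.965 (H23). The same fit gave each line against the mean of the others and against each other line, and a second fit gave the interaction. Levels are CPM on the TMM scale, divided by the exonic length in the files for FPKM. Ratios within a line used a prior count of 5. Folds against lines at 0 counts used a floor of 3 counts over both libraries of the line and, with the exact intervals, cover counting error only. The steps were tested on simulated data. Alternatives used DESeq2 1.42.0, limma 3.58.1, other scalings and filters, and left out each library or line.

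The genes, the lists of pairs, trimers, ligands and markers, and the rule for naming genes were chosen with earlier results of these data known. Named were ITGB4, ITGA6, ITGB1, ITGAV, LAMA3, LAMB3 and LAMA5, the 5 highest and 5 lowest called genes of each line, the 3 of smallest p per direction for PD-L1s, chains of combinations detected in some lines only, and examples from each list. LRRC33 and PECAM1 were not matched by symbol and were not used here. A gene among these and a trimer are not reported here, though counts over all genes and combinations include them.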

Additional observations from a re-analysis of the deposited data

Results flagged for a closer look

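A group of 4 libraries or of 4 within-line ratios was singled out when 1 line lay far from the other 3, that is, when the gap to the nearest divided by the whole range exceeded Dixon's critical value at 95% for 4 values. Levels were examined on the scale of log2 of CPM plus 0.25. Of 111 groups over 37 genes 11 did so, or 9.91%. By its definition the critical value gives about 1 in 20 for independent values with no outlying line. ITGA4, ITGA8, ITGA9 and ITGBL1 passed the filter on low counts through 1 line only, so a line far from the others was built into their selection, and their gaps are given as values. Of 99 groups over the other 33 genes 7 did so, or 7.07%. The PD-L1s and untreated groups of a gene hold the same 4 lines, and no share over all genes tested is set beside these percentages. They therefore do not show an excess among the integrin and laminin genes.

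H23 was the outlying line for most of the groups past the critical value. LAMB3 had a gap of 0.945 of the range among PD-L1s libraries (0.251 CPM in H23, 794 to 1215 CPM in the others) and of 0.906 among untreated libraries (0.802 CPM in H23, 567 to 1087 CPM in the others). ITGB6 had 0.884 among PD-L1s and 0.898 among untreated libraries. ITGA11 had 0.922 among PD-L1s libraries (0.0502 CPM in H23, 2.21 to 2.69 CPM in the others). H23 was the high one for ITGA4, with gaps of 0.923 among PD-L1s and 1 among untreated libraries, and for ITGA8 among PD-L1s libraries, with a gap of 1.

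Of within-line ratios of PD-L1s to untreated, ITGA1 stood apart in H820 (log2 ratio 1.70 against 0.06 to 0.11 in the other lines, gap 0.972). ITGA8 stood apart in H820 as well (log2 ratio -0.69 against 0 to 0.06, gap 0.924), on 0 counts in PD-L1s and 1 count in untreated H820. ITGA2 stood apart in H23 (log2 ratio 0.29 against -0.03 to 0.02, gap 0.850).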

How the results depend on the processing

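Under other scalings, tools and filters and without the treatment term, the number of genes called stayed within 28 to 30 for H23, 26 to 29 for EBC1, 26 to 28 for H820 and 26 to 29 for H1975, and at 0 for PD-L1s and for the interaction. Leaving out each library in turn gave 25 to 31 for H23, 22 to 28 for EBC1, 23 to 29 for H820 and 21 to 27 for H1975; the lone library of a line was then assumed to vary like the others. Leaving out the untreated EBC1 and H820 libraries, chosen after seeing the data, gave 31, 28, 30 and 27. For PD-L1s the count was 0 without each line in turn, and 0 in the fit with no replicate block. That fit takes the differences between lines into its spread, and the paired fit had called 0 already. It therefore cannot show whether pairing by line matters.

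Scaling by library size alone moved the median log2 difference of all genes to 0.54 for H23 and -0.40 for EBC1, against 0.10 and -0.08 with TMM, and split the calls of all genes 12169 higher and 4303 lower in H23, against 8322 and 6618, and 4784 higher and 8921 lower in EBC1, against 6791 and 6376. The direction reversed for uncalled genes only. In H23, ITGB1 became 0.18 and ITGAV 0.20 with library size alone, and LAMA5 became -0.047 without the 2 shallow libraries. In EBC1, LAMA5 became -0.22 with library size alone and -0.16 without the PD-L1s library of EBC1. LAMA3 in H1975 became -0.051 without the untreated H1975 library. For PD-L1s with H23 and H1975 only, LAMB3 became -0.058 and LAMA5 -0.048. The cause was not tested. Of the other values of single genes and lines, 1268 stayed on their side of the threshold, 29 lost the call, 11 gained it and 2 moved. Lost calls included ITGA4 in H23 with DESeq2 (adjusted p = 0.1001), and those of ITGB1 and ITGAV in EBC1, ITGB1 in H820 and both in H1975 when single libraries were left out.

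Combinations of chains detected over the 4 lines numbered 69. They numbered 75 at 0.5 FPKM, 51 at 5 FPKM, 69 with library size alone and 70 from untreated libraries only. At 5 FPKM, H23 kept 7 pairs and 4 trimers by count. Neighbouring lines apart numbered 76 with library size alone and 70 at a minimum count of 50. The shallow untreated EBC1 and H820 libraries limit low genes, since 3 counts there are worth 0.576 and 0.507 CPM.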
